A study of Sus scrofa with 12 samples.

Results

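Transcript levels of 10 genes of the canonical WNT pathway were examined in pig embryonic stem cells (ESCs) and fetal fibroblasts. The genes are the nuclear factors LEF1, TCF7, TCF7L1 and TCF7L2, the coactivator CTNNB1, the tankyrases TNKS and TNKS2, the feedback genes AXIN2 and APCDD1, and the ligand WNT3. They were chosen by name, as effectors and feedback genes of the pathway. Of the 10 genes, 9 were matched by symbol to a locus among the 30012 loci measured, and AXIN2 is not analysed here. Where a symbol stood on several loci, the annotated locus with the highest mean level was used. All 9 were above the expression minimum described below.

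The study profiled RNA from 12 libraries, 3 in each of 4 groups. Fibroblasts were isolated from a fetus at 30 days post coitum and taken at passage 6. ESC3 and ESC7 are parthenogenetic lines, which carry no sperm genome, and ESC11 is a line from an embryo fertilised in vitro (IVF). Each origin of ESC is therefore represented by 1 or 2 lines, and each line was sequenced as 3 libraries.

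All 3 ESC lines were grown on feeder cells in a medium with FGF2 at 20 ng/mL, ActA at 5 ng/mL, a compound abbreviated CH at 1.5 µM and IWR-1 at 2.5 µM. IWR-1 is a tankyrase inhibitor. Y-27632 was present at 10 µM around passaging. The cells carrying the surface antigen SSEA1 were collected on magnetic columns before RNA extraction. The labels used here give no medium for the fibroblasts and no ESC library grown without CH or IWR-1. Differences between ESCs and fibroblasts therefore combine cell type, medium and sorting, which cannot be told apart.

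In canonical WNT signalling, a ligand such as WNT3 binds a Frizzled receptor and an LRP coreceptor, and the complex that marks β-catenin for degradation is held back. β-Catenin, the product of CTNNB1, then enters the nucleus and binds the TCF/LEF proteins. LEF1 and TCF7 mainly act as activators with it, TCF7L1 is best known as a repressor in pluripotent cells, and TCF7L2 can act either way. Tankyrases mark the scaffold protein axin for destruction, so a tankyrase inhibitor keeps axin and lowers β-catenin protein. AXIN2 and APCDD1 are induced by the pathway and dampen it.

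Levels are the authors' FPKM (fragments per kilobase of transcript, scaled by the mapped fragments of each library), given as the mean ± SD of 3 libraries unless another n is stated. Differences are on the log2(FPKM + 1) scale, which understates the fold change of low genes, with the standard error from limma. A gene counts as called where the p adjusted by Benjamini-Hochberg over 18278 tested loci was below 0.05 and the log2 difference was 1 or more in either direction, and "rose" and "fell" are used only for called genes. A locus was tested where 3 or more libraries reached an FPKM of 1. Statements that groups do not overlap are descriptions, and the share of all loci without overlap was not counted. The labels do not state whether the 3 libraries of a line came from different cultures. The p-values therefore reflect variation from library to library, part or all of which may be technical.

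The libraries matched their labels. The summed FPKM of 5 pluripotency genes (POU5F1, SOX2, NANOG, LIN28A and EPCAM) was 1875 to 2043 in the ESC libraries and at most 0.141 in fibroblasts. That of 9 fibroblast genes (among them COL1A1, DCN and THY1) was 16155 to 16332 in fibroblasts and 72.7 to 113 in ESCs. The median tested locus was 0.44 higher in ESCs than in fibroblasts on the log2 scale, and ESC differences from fibroblasts are read against that shift. Read counts are not given, and with them the depth of each library is unknown.

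Against fibroblasts, the ESC lines had a TCF/LEF family dominated by TCF7L1, with LEF1 close to 0, and more APCDD1 and WNT3 transcript. In the mean of the 3 ESC lines, APCDD1, TCF7L1 and WNT3 rose and LEF1 and TCF7 fell. The other 4 genes, TNKS2, TCF7L2, CTNNB1 and TNKS, were not called. This made 5 of 9 genes called (3 higher and 2 lower), where 43.1% of all tested loci were called in the same comparison, 28.1% higher and 14.9% lower. LEF1 passed the expression minimum only through fibroblasts, and APCDD1 and WNT3 only through ESCs, so these 3 had to differ in order to be tested and the count is a description. The median difference of the 9 genes was 0.75, beside 0.44 over all loci. The split of all loci moved with the scaling, from 5144 higher and 2730 lower as deposited to 3489 and 3476 after quantile normalization, where TCF7L1 and APCDD1 rose, LEF1 and TCF7 fell and WNT3 was not called. With a pseudocount of 5 in place of 1, which damps low genes, LEF1 had a difference of -1.45, APCDD1 of 1.57 and TCF7L1 of 2.52. These 3 alone of the 9 genes were called, beside 24.9% of all loci. In bulk RNA, fewer cells with a transcript and less of it per cell cannot be told apart.

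**Figure D1:**
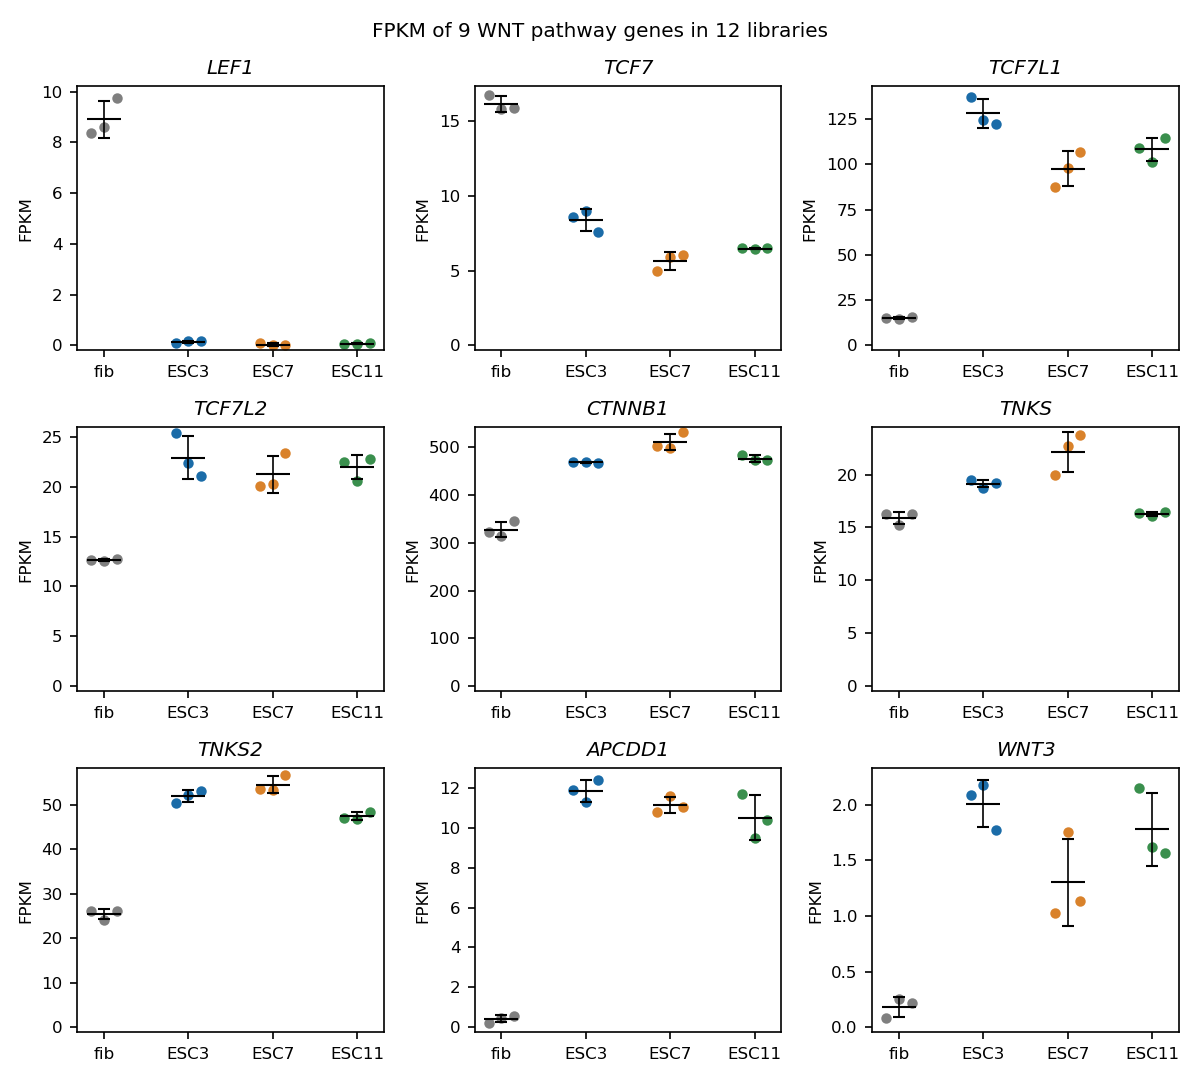
FPKM (vertical axis, linear, from 0) of the 9 genes in the 12 libraries, by group (horizontal axis: fib, fetal fibroblasts; ESC3 and ESC7, parthenogenetic; ESC11, IVF). Points are libraries, long bars are group means and whiskers are 1 SD (n = 3). LEF1 and TCF7 are highest in fibroblasts, and in the panels of TCF7L1, TCF7L2, CTNNB1, TNKS2, APCDD1 and WNT3 every ESC library lies above every fibroblast library. APCDD1 and WNT3 passed the expression minimum only through ESCs. How many of all loci separate in this way was not counted.

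LEF1, an activating TCF/LEF factor, lies on chromosome 8 at 122084688 to 122204345 (Sscrofa10.2, as are all positions given). Its FPKM in fibroblasts was 8.35, 8.62 and 9.73. The ESC3 libraries had 0.0875, 0.147 and 0.179, in ESC11 it was 0.0595, 0.0533 and 0.069, and in ESC7 it was 0.0761 in 1 library and listed at 0 in the other 2. Every fibroblast library lay above every ESC library, with no value between 0.179 and 8.35. LEF1 fell by 3.20 ± 0.05 in the ESC mean (adjusted p = 1.13e-12 by limma). On the FPKM scale its group mean was 64.5-fold lower in ESC3 and 147-fold lower in ESC11 than in fibroblasts, and no fold is given for ESC7, where 2 libraries are at 0. Because its ESC values are below the expression minimum, LEF1 was tested only through its fibroblast values, and it drops out of the test when any 1 fibroblast library is left out.

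TCF7, the other mainly activating factor, lies on chromosome 2 at 142041628 to 142074098. It measured 16.8, 15.8 and 15.9 FPKM in fibroblasts, 8.61, 8.97 and 7.58 in ESC3, 6.49, 6.45 and 6.49 in ESC11, and 4.96, 5.90 and 6.07 in ESC7. Fibroblasts did not overlap with any ESC line, and all ESC libraries kept a measurable level, unlike LEF1. TCF7 fell by 1.15 ± 0.06 in the ESC mean (adjusted p = 1.23e-08 by limma), and its mean FPKM was 2.36-fold lower. By line the log2 difference was -0.87 in ESC3, which was not called, -1.37 in ESC7 and -1.20 in ESC11.

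TCF7L1, known as a repressor of TCF target genes in pluripotent cells, lies on chromosome 3 at 62435510 to 62602269. Its FPKM in fibroblasts was 15.2, 14.7 and 15.5. It was 137, 125 and 123 in ESC3, 109, 102 and 115 in ESC11, and 87.7, 98.1 and 107 in ESC7. The lowest ESC library was thus several times above the highest fibroblast library. TCF7L1 rose by 2.79 ± 0.06 in the ESC mean (adjusted p = 9.64e-12 by limma), 7.35-fold on the FPKM scale, and it was called in each of the 3 lines.

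TCF7L2, which can activate or repress, lies on chromosome 14 at 134586281 to 134789969. Its mean was 12.7 ± 0.141 FPKM in fibroblasts, 22.9 ± 2.19 in ESC3, 21.3 ± 1.85 in ESC7 and 22.0 ± 1.19 in ESC11. No ESC library overlapped with a fibroblast library, and the 3 lines overlapped with each other. The log2 difference of 0.75 ± 0.06 was below the fold minimum (adjusted p = 5.63e-07 by limma). It was 0.31 above the median shift of all loci.

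Within a library, the share of each factor in the summed FPKM of the 4 TCF/LEF genes is unchanged when the whole library is multiplied by a constant. Quantile normalization is not such a scaling, and the shares were computed on the deposited values alone. In fibroblasts the 4 factors were of like size. TCF7 had 30.6 ± 1.11%, TCF7L1 28.7 ± 0.129%, TCF7L2 23.9 ± 0.254% and LEF1 16.8 ± 1.15% (n = 3). In the 9 ESC libraries TCF7L1 alone had 79.3 ± 0.962%, with a range of 77.7 to 81.0%. TCF7L2 had 15.8 ± 1.28%, TCF7 4.84 ± 0.418% and LEF1 0.0515 ± 0.0388% (n = 9). The family sum itself was 52.9 ± 1.10 FPKM in fibroblasts, 160 ± 10.4 in ESC3, 125 ± 11.9 in ESC7 and 137 ± 7.65 in ESC11. These shares are a description and were not tested.

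**Figure D2:**
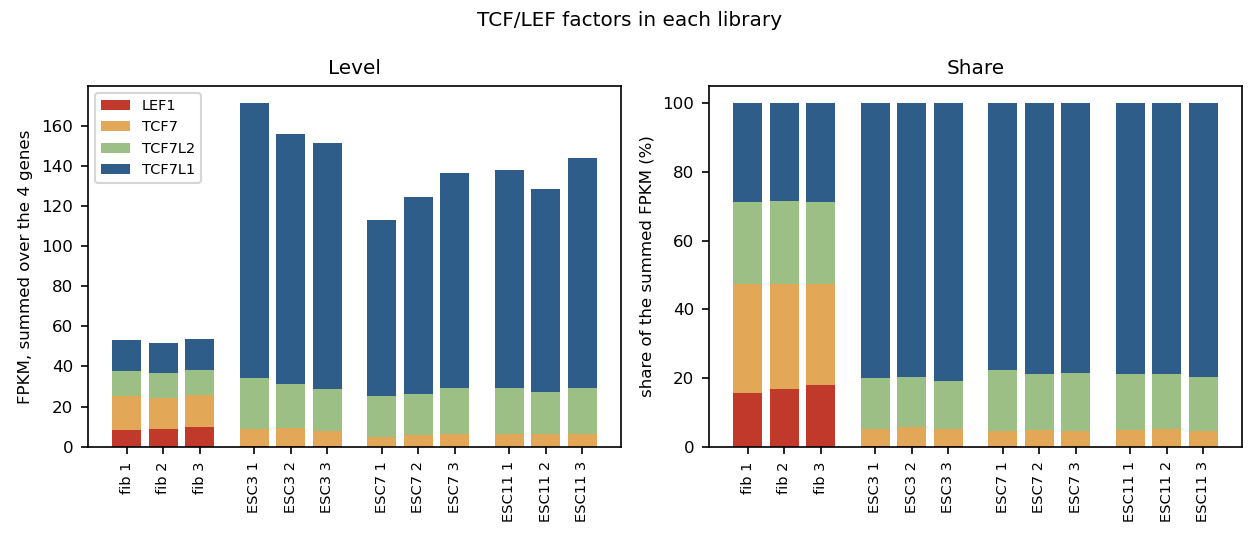
TCF/LEF factors in each of the 12 libraries. The left panel stacks their FPKM (linear axis from 0) and the right panel their share in percent of the 4-gene sum. TCF7L1 takes 77.7 to 81.0% in the ESC libraries, while LEF1 and TCF7 have a visible part in the 3 fibroblast libraries.

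The ratios between factors were closer to each other among the 3 ESC lines than to those of fibroblasts. TCF7L1 stood to TCF7 at 0.939 ± 0.0348 in fibroblasts, and at 15.3 ± 1.25 in ESC3, 17.3 ± 0.591 in ESC7 and 16.7 ± 0.946 in ESC11. TCF7L1 stood to TCF7L2 at 1.20 ± 0.0180 in fibroblasts and at 5.60 ± 0.203, 4.59 ± 0.231 and 4.93 ± 0.0992 in ESC3, ESC7 and ESC11. The repressive member thus exceeded each of the other 3 factors in every ESC library, whereas TCF7 was above it in all 3 fibroblast libraries.

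CTNNB1, which encodes β-catenin, the partner of all 4 factors and also a part of cadherin junctions, lies on chromosome 13 at 27619253 to 27667302. It was the most abundant of the 9 genes in every group. It measured 322, 315 and 345 FPKM in fibroblasts, 468, 469 and 468 in ESC3, 484, 472 and 472 in ESC11, and 502, 499 and 531 in ESC7. Every ESC library was above every fibroblast library, yet the log2 difference of 0.57 ± 0.04 was below the fold minimum (adjusted p = 1.00e-07 by limma) and 0.12 above the median shift. These are transcript levels, and the β-catenin protein on which tankyrase inhibition acts was not measured. A second annotated locus with this symbol was listed at 0 in all 12 libraries.

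Relative to the factors it binds, CTNNB1 transcript was lower in ESCs. Its FPKM was 6.19 ± 0.183 times the summed TCF/LEF FPKM in fibroblasts, 2.94 ± 0.185 times in ESC3, 4.12 ± 0.295 times in ESC7 and 3.49 ± 0.194 times in ESC11. The ratio in each of the 9 ESC libraries was below that in the 3 fibroblast libraries, with 4.45 as the highest ESC value and 6.08 as the lowest fibroblast value. It was not tested.

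The tankyrases, the enzymes that IWR-1 inhibits, were transcribed in all groups. TNKS2, on chromosome 14 at 112909766 to 112975306, measured 26.1, 24.2 and 26.2 FPKM in fibroblasts, 50.5, 52.3 and 53.2 in ESC3, 47.0, 46.8 and 48.4 in ESC11, and 53.6, 53.3 and 56.7 in ESC7. Its mean FPKM was 2.01-fold higher in ESCs with no overlap, and its log2 difference of 0.98 ± 0.03 in the ESC mean lay just under the fold minimum (adjusted p = 3.22e-10 by limma). By line the difference was 1.00 in ESC3 and 1.07 in ESC7, both called, and 0.87 in ESC11, which was not. The call in ESC3 was lost with a pseudocount of 5 (0.90), median ratios (0.63), an equal summed FPKM (0.51) or quantile normalization (0.74), and without fibroblast replicate 2 (0.97), ESC3 replicate 2 (0.997) or ESC3 replicate 3 (0.98). The call in ESC7 was lost under the same 4 settings (0.97, 0.70, 0.87 and 0.82).

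TNKS, on chromosome 15 at 62927517 to 63097208, differed less. Its FPKM was 16.2, 15.2 and 16.3 in fibroblasts, 19.5, 18.8 and 19.2 in ESC3, 16.4, 16.1 and 16.4 in ESC11, and 20.0, 22.7 and 23.7 in ESC7. ESC11 overlapped with fibroblasts, and ESC3 and ESC7 did not. The log2 difference of 0.25 ± 0.05 (adjusted p = 4.56e-04 by limma) was not called, was smaller than the median shift of all loci, and turned to -0.003 after quantile normalization and -0.11 after scaling by median ratios. The ratio of TNKS2 to TNKS is unchanged when a whole library is multiplied by a constant, though not under quantile normalization. As deposited it was 1.60 ± 0.0137 in fibroblasts and 2.72 ± 0.109, 2.47 ± 0.183 and 2.91 ± 0.0412 in ESC3, ESC7 and ESC11.

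APCDD1 encodes a membrane protein that binds WNT ligands and LRP receptors and limits signalling. Its locus is on scaffold GL893427.2 at 1798 to 14528. It measured 0.223, 0.482 and 0.567 FPKM in fibroblasts, 11.9, 11.3 and 12.4 in ESC3, 11.7, 9.49 and 10.4 in ESC11, and 10.8, 11.6 and 11.1 in ESC7. The groups were far apart, and the 3 ESC lines overlapped. APCDD1 rose by 3.10 ± 0.08 in the ESC mean (adjusted p = 3.28e-11 by limma), 26.3-fold on the FPKM scale. It was the largest rise among the 9 genes as deposited and under the 3 other scalings tried, though not with a pseudocount of 5, where TCF7L1 was higher.

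WNT3, a ligand of the canonical branch, lies on chromosome 12 at 17661213 to 17719509. It was low everywhere. Fibroblasts had 0.0798, 0.252 and 0.218 FPKM, ESC3 had 2.09, 2.17 and 1.77, ESC7 had 1.03, 1.75 and 1.14, and ESC11 had 2.15, 1.62 and 1.56. All 9 ESC libraries were nevertheless above the 3 fibroblast libraries. WNT3 rose by 1.18 ± 0.10 in the ESC mean (adjusted p = 1.05e-06 by limma), 9.26-fold on the FPKM scale. ESC7 alone, at a difference of 0.95, was not called, and after quantile normalization the difference in the ESC mean was 0.53, also not called.

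Each ESC line was also set against the same 3 fibroblast libraries, so these 3 comparisons are not independent of one another. In ESC3, 4 of 9 genes rose and 1 fell, with 44.1% of all loci called (28.6% higher and 15.5% lower). In ESC7, 3 rose and 2 fell, with 43.4% of loci called (29.2% higher and 14.3% lower). In ESC11, 3 rose and 2 fell, with 42.9% called (27.4% higher and 15.5% lower). LEF1 fell, and TCF7L1 and APCDD1 rose, in each of the 3 lines. The genes whose call differed between lines, TCF7, TNKS2 and WNT3, all lay near the fold minimum.

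**Figure D3:**
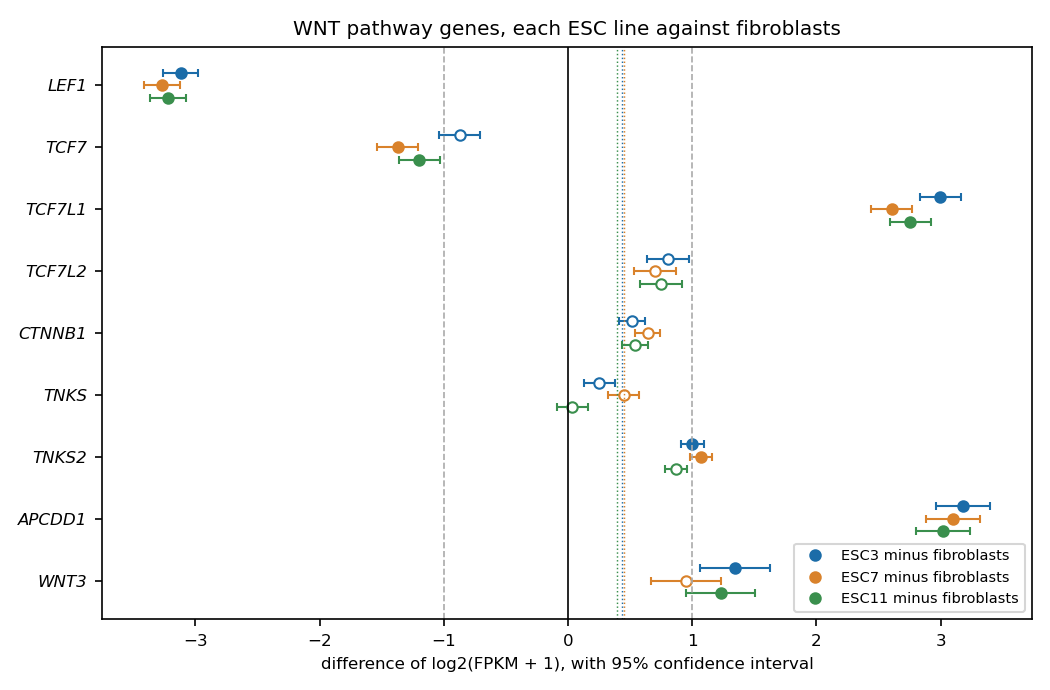
Differences of log2(FPKM + 1) between each ESC line and fibroblasts (horizontal axis) for the 9 genes, with 95% confidence intervals from limma. Filled points passed the call, dashed lines mark the fold minimum of 1 in each direction, and dotted lines mark the median of all tested loci (0.43 for ESC3, 0.45 for ESC7 and 0.39 for ESC11). LEF1 lies far to the left and TCF7L1 and APCDD1 far to the right in all 3 lines.

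Between ESC lines the 9 genes differed little. None was called in any of the 4 comparisons, where 2.2% of all loci were called between the parthenogenetic mean and IVF ESC11, 3.38% between ESC7 and ESC3, 2.48% between ESC3 and ESC11, and 2.94% between ESC7 and ESC11. With no fold minimum, adjusted p alone was under 0.05 by limma for 2, 4, 4 and 2 of the 9 genes in the same order, beside 19.7%, 39.9%, 23.0% and 30.9% of all loci. A missed call does not show that the lines are alike. The 95% intervals of the 9 genes spanned log2 differences from -0.68 to 0.54 over the 4 comparisons. Scaling all libraries to the same summed FPKM moved the median of all loci to -1.02 for the parthenogenetic mean minus ESC11, and 4 of 9 genes were then called lower there, 6 for ESC3 and 3 for ESC7 against ESC11, beside 52.8%, 66.3% and 31.8% of all loci. The summed FPKM was carried by loci shorter than 300 bp, which held 54.8 to 80.6% of it.

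**Figure D4:**
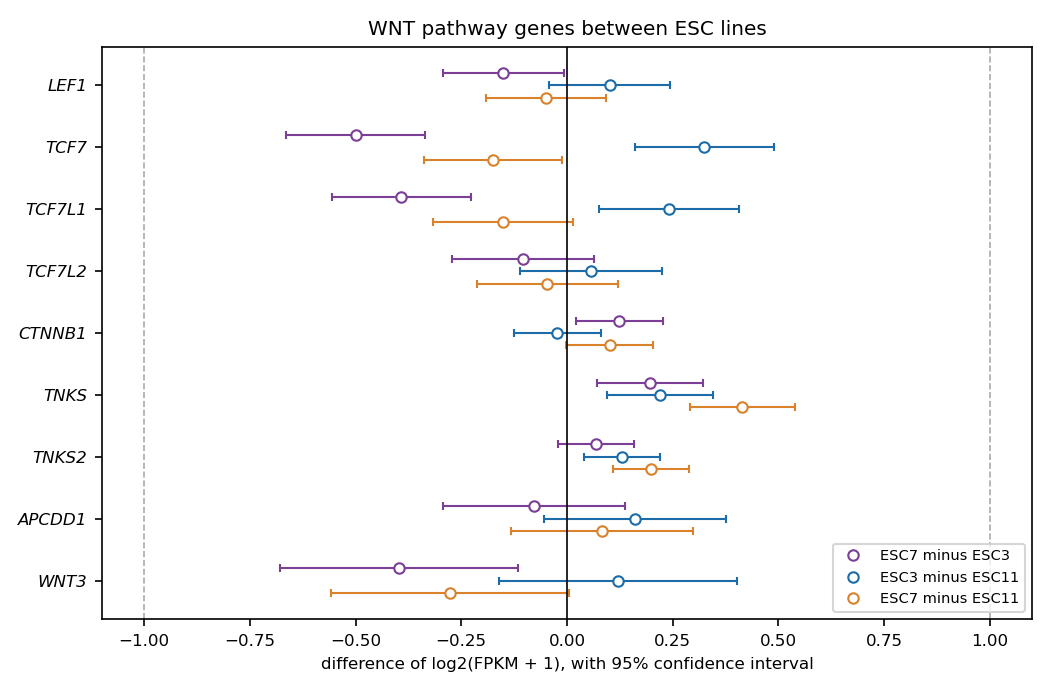
Differences of log2(FPKM + 1) between pairs of ESC lines (horizontal axis) for the 9 genes, with 95% confidence intervals from limma, and dashed lines at the fold minimum of 1. All intervals stay inside the dashed lines. TCF7, TCF7L1 and WNT3 lie to the left for ESC7 minus ESC3, and TNKS lies to the right in all 3 pairs.

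The small differences followed 2 orders as deposited, which are a description. Their counts at adjusted p alone are given above beside the shares of all loci. Under scaling to the same summed FPKM, ESC3 minus ESC11 turned to -0.87 for TCF7, -1.09 for TCF7L1 and -0.78 for WNT3. As deposited, TCF7, TCF7L1 and WNT3 were highest in ESC3, next in ESC11 and lowest in ESC7. From ESC3 to ESC7 the log2 difference was -0.50 ± 0.07 for TCF7 (adjusted p = 4.12e-04 by limma), -0.39 ± 0.07 for TCF7L1 (adjusted p = 0.00206 by limma) and -0.40 ± 0.13 for WNT3 (adjusted p = 0.0300 by limma). Among neighbours in that order, ESC3 and ESC11 differed beyond their spread in TCF7 (0.33, adjusted p = 0.0104 by limma) and TCF7L1 (0.24, adjusted p = 0.0411 by limma), and not in WNT3 (adjusted p = 0.555 by limma). ESC11 and ESC7 did not differ beyond their spread in any of the 3 genes (adjusted p of 0.0994 for TCF7, 0.154 for TCF7L1 and 0.127 for WNT3 by limma). These are the 2 parthenogenetic lines at either end, with the IVF line between them.

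The summed FPKM of 4 measured neural marker genes took the same order, at 237 to 271 in ESC3, 143 to 152 in ESC11 and 50.0 to 57.9 in ESC7, with 213 to 224 in fibroblasts. That order was carried by TUBB3, a neuronal tubulin, which fell by 2.43 from ESC3 to ESC7, while NES and NCAM1 were not called. PAX6, a defining transcription factor of neural progenitors, was listed at 0 in all libraries of ESC3 and ESC7. It reached 1 FPKM in all 3 fibroblast libraries and in no ESC library. Of the 4 genes, 3 were called lower in the ESC mean than in fibroblasts. Whether neural cells were present, and any part of them in the differences of TCF7, TCF7L1 and WNT3, was not tested.

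As deposited, the tankyrases took the other order, with ESC7 above ESC3 above ESC11. Under scaling to the same summed FPKM, ESC3 minus ESC11 was instead -1.06 for TNKS and -1.19 for TNKS2. For TNKS as deposited, every step differed beyond its spread. It was 0.20 ± 0.06 from ESC3 to ESC7 (adjusted p = 0.0186 by limma) and 0.22 ± 0.06 from ESC11 to ESC3 (adjusted p = 0.0188 by limma), and the parthenogenetic mean exceeded ESC11 by 0.32 ± 0.05 (adjusted p = 0.00142 by limma). ESC11 and fibroblasts did not differ beyond their spread in TNKS (adjusted p = 0.584 by limma). TNKS2 exceeded ESC11 by 0.16 ± 0.04 in the parthenogenetic mean (adjusted p = 0.00895 by limma). ESC3 exceeded ESC11 by 0.13 ± 0.04 (adjusted p = 0.0433 by limma), and the step from ESC3 to ESC7 was within the spread (adjusted p = 0.217 by limma). The summed FPKM of 5 measured mesendoderm marker genes was also highest in ESC7, at 2.92 to 3.30, with 1.01 to 2.1 in ESC3, 1.57 to 1.73 in ESC11 and 0.810 to 1.03 in fibroblasts. The median sum was 1.33 in ESC3 and 1.63 in ESC11, so it did not follow the tankyrase order between these lines. GATA6, a transcription factor of endoderm, was the only gene of these to be tested, and it reached 1 FPKM in 2 fibroblast libraries too. It was called higher in ESC7 than in ESC3, by 1.08 (adjusted p = 2.39e-04 by limma). MIXL1 was listed at 0 in all libraries of ESC11. Whether mesendoderm cells were present, and any part of them in the differences of TNKS and TNKS2, was not tested.

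The remaining 4 genes showed no difference between ESC lines with an adjusted p under 0.05. Their levels went down in the order ESC3, ESC11, ESC7 for LEF1 and TCF7L2, in the order ESC3, ESC7, ESC11 for APCDD1, and in the order ESC7, ESC11, ESC3 for CTNNB1. The adjusted p by limma between neighbours in these orders was 0.301 and 0.606 for LEF1, 0.645 and 0.686 for TCF7L2, 0.563 and 0.568 for APCDD1, and 0.129 and 0.784 for CTNNB1. Apart from LEF1 in ESC3 and ESC7 (33.7% and 173%) and WNT3 in ESC7 (29.9%), the coefficient of variation between the 3 libraries of an ESC line was at most 18.2% for any of the 9 genes.

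Of the 17 nearest tested annotated genes on either side of these loci, 3 were called (17.6%), beside 43.1% of all loci. SH2D6, an adaptor gene 30224 bp from TCF7L1, fell by 2.80, while TCF7L1 rose. DUSP4, a phosphatase of MAP kinases 4101 bp from TNKS, rose by 3.38, while TNKS was not called. ULK4, 260186 bp from CTNNB1, rose by 1.61. For LEF1, TCF7, TCF7L2, APCDD1, TNKS2 and WNT3 no nearest neighbour was called.

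For LEF1, TCF7, TCF7L1, APCDD1 and WNT3, the genes with the most similar levels across libraries were looked up, and this was not computed for the other 4. The following are Pearson correlations of log2(FPKM + 1) with annotated loci, given as descriptions over libraries that share lines and scaling. Over all 12 libraries, where the step between fibroblasts and ESCs sets the correlation, the most like gene was HSPB7 for LEF1 (0.999), FAM171A1 for TCF7 (0.994), MDN1 for TCF7L1 (0.999), FBLN1 for APCDD1 (0.998) and HPRT1 for WNT3 (0.984). Next came TPM4 and CALU for LEF1, AMOTL2 and C5ORF42 for TCF7, DLAT and POGK for TCF7L1, ENOPH1 and SEC23B for APCDD1, and TBC1D31 and TMEM259 for WNT3. Over the 9 ESC libraries alone, 12699 loci were compared. The most like were CIAPIN1 (0.993), PRR5L and AQR for TCF7, and PPP2R1B (0.986), HIP1 and TRRAP for TCF7L1. They were PPP1R12C (0.955), TFB2M and EIF1B for LEF1, TIPARP (0.950), PNN and PSMA3 for APCDD1, and DUSP3 (0.938), CDC25A and ISY1 for WNT3. LEF1 was below the expression minimum in all 9 ESC libraries, so its correlations there follow values near 0. No gene was shared between the 2 sets of any of the 5.

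Beyond the 9 genes, 104 other WNT pathway genes were listed by role, 97 had a locus and 76 were tested. Of the 76, 6 reached 1 FPKM in fibroblasts alone and 8 in ESCs alone, so these had to differ in order to be tested. In the ESC mean 18 rose and 18 fell, or 47.4% called beside 43.1% of all loci, and their median difference was 0.43 beside 0.44. The count of rises was 11 with quantile normalization, scaling by median ratios or a pseudocount of 5, with 19, 20 and 12 falls. Over all loci, 3489 rose and 3476 fell with quantile normalization. These were 3763 and 3572 with median ratios, and 2814 and 1740 with a pseudocount of 5. Without any 1 fibroblast library there were 12 falls, since genes seen in fibroblasts alone then miss the expression minimum. By role, 75% of the other ligands, 42.9% of the receptors, 44.4% of the antagonists and 75% of the other targets were called. The share was 28.6% for the destruction complex and dishevelled genes and 36.4% for the nuclear cofactors. It was 50% each for ligand secretion, the R-spondin axis and the cadherin complex. Each role holds few genes, and 43.1% of all loci were called.

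**Figure D5:**
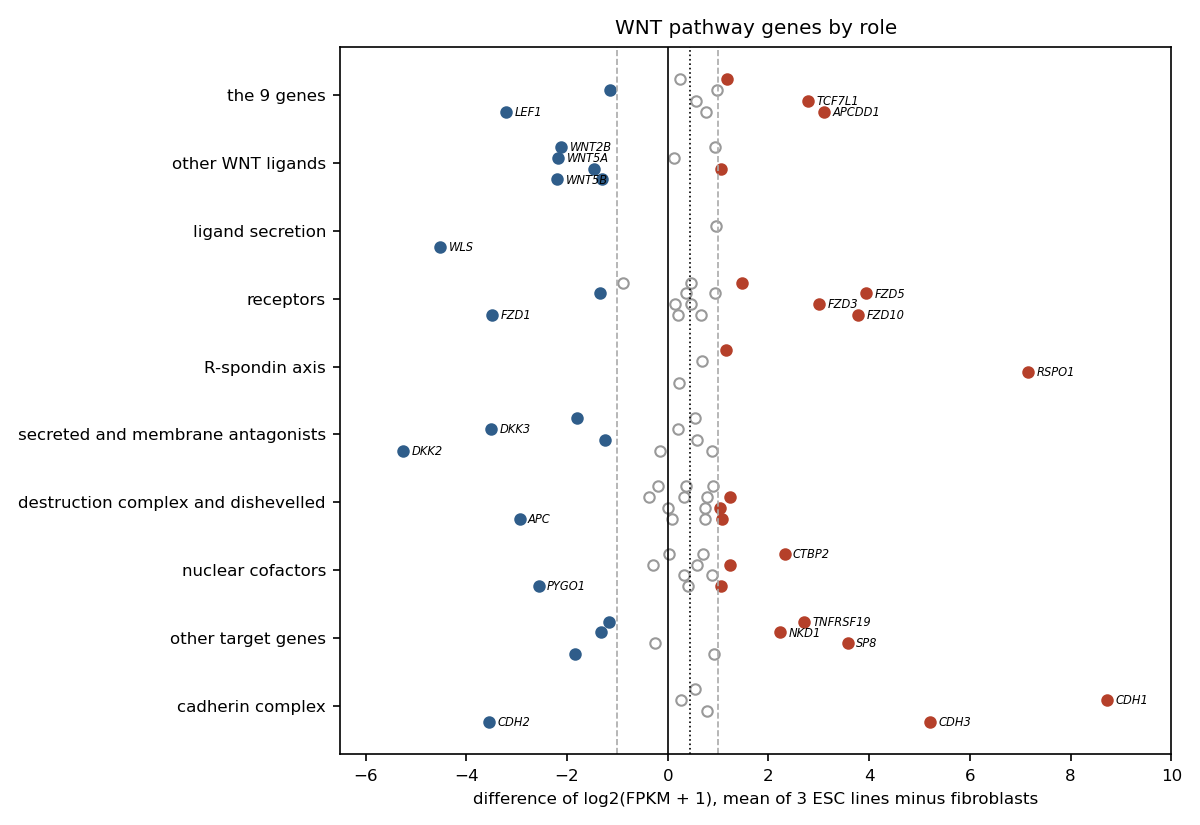
Differences of log2(FPKM + 1), mean of the 3 ESC lines minus fibroblasts (horizontal axis), for the 9 genes and 76 other WNT pathway genes by role (vertical axis). Filled points passed the call (red higher, blue lower), dashed lines mark the fold minimum, and the dotted line marks the median of all loci, 0.44. Of the other ligands 5 fell and 1 rose, and of the antagonists 4 fell and none rose. Of all loci 14.9% fell and 28.1% rose.

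Of 17 other ligands with a locus, 8 were tested, and 5 of these fell and 1 rose. WNT2B and WNT16 reached 1 FPKM in fibroblasts alone and WNT8A and WNT3A in ESCs alone, so the expression minimum fixed their direction. WNT5B fell by 2.19 (15.5 ± 1.42 to 2.72 ± 1.01 FPKM, n = 9 for ESCs), WNT5A by 2.17 (9.58 ± 0.524 to 1.41 ± 0.570) and WNT2B by 2.12 (5.60 ± 0.164 to 0.526 ± 0.102), and WNT16 and WNT10B also fell. With a pseudocount of 5, WNT2B (-0.94), WNT16 (-0.54) and WNT10B (-0.51) were not called. WNT5A and WNT5B are best known for noncanonical signalling. WNT8A rose by 1.05 from 0 in all 3 fibroblast libraries to 1.09 ± 0.329 FPKM, a call lost under the 3 settings that lowered the count of rises. WNT3A, the close paralog of WNT3, was at 0.0178 ± 0.0308 FPKM in fibroblasts and 0.971 ± 0.324 in ESCs, a difference of 0.94 that was not called. WLS, the carrier that brings WNT proteins to the cell surface, fell by 4.52 (105 ± 3.82 to 3.66 ± 0.774 FPKM). PORCN, the enzyme that acylates WNT proteins, had 39.2 ± 1.94 and 77.6 ± 9.04 FPKM and was not called.

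Among 14 tested receptors, 4 rose and 2 fell. FZD5 rose by 3.94 (0.803 ± 0.110 to 27.6 ± 8.28 FPKM), FZD10 by 3.79 (0.0840 ± 0.0727 to 14.0 ± 0.944), FZD3 by 3.01 (2.45 ± 0.209 to 26.7 ± 1.53) and ROR1 by 1.48, which was 0.70 and not called with a pseudocount of 5. FZD5 and FZD10 reached 1 FPKM in ESCs alone. ROR2, a receptor of WNT5A, fell by 1.34. FZD1 also fell, by 3.49, on an unannotated locus of 151 bp, and its longer unannotated locus likewise had 35.3 FPKM in fibroblasts and 1.52 to 1.68 in the 3 lines. The coreceptors LRP5, with a difference of 0.66, and LRP6 (14.9 ± 0.153 and 20.8 ± 1.26 FPKM) were not called. In the R-spondin axis, which protects Frizzled receptors from removal, 2 of 4 tested genes rose. RSPO1 rose by 7.15 on an unannotated locus of 571 bp that varied widely between libraries, and ZNRF3, a ligase that removes Frizzled receptors and is a feedback gene like APCDD1, rose by 1.15 (1.54 ± 0.285 to 4.63 ± 0.488 FPKM), again lost under those 3 settings.

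None of 9 tested antagonists rose and 4 fell, or 44.4% called beside 43.1% of all loci. DKK2 fell by 5.26 (38.3 ± 2.15 to 0.0284 ± 0.0527 FPKM), DKK3 by 3.51 (117 ± 5.46 to 9.35 ± 0.899), WIF1 by 1.80 and SFRP2 by 1.25. DKK2 and WIF1 reached 1 FPKM in fibroblasts alone, and the antagonists SFRP5 and SOSTDC1 in ESCs alone. The call of WIF1 was lost with a pseudocount of 5 (-0.71). In ESC7 alone against fibroblasts, 1 antagonist was called higher and 4 lower.

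In the destruction complex and the dishevelled proteins, 3 of 14 genes rose and 1 fell. The fall was in APC, a scaffold of the complex, by 2.94 (46.9 ± 1.54 to 5.25 ± 0.363 FPKM). A second, unannotated APC locus had 22.1 FPKM in fibroblasts and 2.37 to 2.90 in the 3 lines. DVL2 rose by 1.24, AXIN1, the constitutive axin, by 1.07 (16.2 ± 0.720 to 35.2 ± 1.30 FPKM) and CSNK1E by 1.04, and these rises were lost with quantile normalization and scaling by median ratios, those of AXIN1 (0.92) and CSNK1E (0.98) also with a pseudocount of 5. RNF146, the ligase that acts on axin after tankyrase, was not called (56.5 ± 3.26 and 43.3 ± 2.38 FPKM). Of 11 nuclear cofactors, CTBP2, a corepressor, rose by 2.32 (41.3 ± 0.652 to 211 ± 6.43 FPKM), TLE3, a corepressor that binds TCF factors, by 1.23 and CHD8 by 1.05, and PYGO1, a coactivator of β-catenin, fell by 2.57 (7.76 ± 0.890 to 0.488 ± 0.231). The calls of TLE3 and CHD8 were lost with quantile normalization, scaling by median ratios and a pseudocount of 5. PYGO1 reached 1 FPKM in fibroblasts alone, so the expression minimum fixed its direction.

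Other genes listed as WNT targets split evenly, with 3 of 8 higher and 3 lower. SP8 rose by 3.57 (0.0561 ± 0.0513 to 11.6 ± 1.28 FPKM), TNFRSF19 by 2.71 (1.65 ± 0.0523 to 16.8 ± 3.79) and NKD1, a feedback inhibitor that binds dishevelled, by 2.23. CCND1, which encodes cyclin D1, fell by 1.84 (137 ± 5.97 to 38.0 ± 5.44 FPKM), and SP5, on an unannotated locus, by 1.16, which was -0.32 and not called with a pseudocount of 5. MYC had 31.9 ± 1.16 and 27.1 ± 5.83 FPKM and was not called. SP8 reached 1 FPKM in ESCs alone and SP5 in fibroblasts alone, so the expression minimum fixed their direction. Of the other named targets called here, TNFRSF19 and NKD1 rose and CCND1 fell. A second annotated NKD1 locus had 9.02 FPKM in fibroblasts and 12.8, 6.81 and 11.9 in ESC3, ESC7 and ESC11, without such a rise. An unannotated NKD1 locus of 176 bp had 578 FPKM in fibroblasts and 636, 576 and 431 in ESC3, ESC7 and ESC11. Another, of 1112 bp, had 270 in fibroblasts and 546, 389 and 196 in the same lines. Both were lower in ESC11 than in fibroblasts.

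Of the 6 genes of the cadherin complex, where β-catenin serves adhesion, CDH1 (E-cadherin) rose by 8.72, from 0 in all fibroblast libraries to 430 ± 90.9 FPKM. CDH1 reached 1 FPKM in ESCs alone, so the expression minimum fixed its direction. CDH3 rose by 5.21, and CDH2 (N-cadherin) fell by 3.54 (525 ± 96.3 to 46.2 ± 15.3 FPKM). CTNNA1 (176 ± 3.32 and 305 ± 5.44 FPKM), CTNND1 and JUP, the cytoplasmic partners, were not called, as was CTNNB1.

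Between ESC lines, 2 of these 76 genes were called, which was 2.63% for ESC7 against ESC3 beside 3.38% of all loci, and 1.32% for ESC3 against ESC11 beside 2.48%. In the other 2 comparisons between lines limma called none. Unadjusted p by limma was under 0.05 for 26 genes between the parthenogenetic mean and ESC11 and 34 between ESC7 and ESC11. It was so for 41 between ESC7 and ESC3 and 34 between ESC3 and ESC11. The share of all loci at that p was not counted. At adjusted p alone, limma had 2251 higher and 1341 lower of 18278 loci between the parthenogenetic mean and ESC11. Between ESC7 and ESC11 it had 3578 and 2069. NKD1 was lower in ESC7 than in ESC3 by 1.65 ± 0.42 (adjusted p = 0.0105 by limma) and higher in ESC3 than in ESC11 by 1.55 ± 0.42 (adjusted p = 0.0241 by limma). Its FPKM was 297, 333 and 207 in ESC3, 109, 78.0 and 93.5 in ESC11, and 197, 49.1 and 66.4 in ESC7. The 3 ESC3 libraries lay above all others, and ESC7 replicate 1 came close to the lowest of them. The difference between ESC3 and ESC11 lost its call without ESC3 replicate 1 (adjusted p = 0.0684 by limma), ESC3 replicate 2 (0.0789), ESC11 replicate 2 (0.0733) or ESC11 replicate 3 (0.0614), and was 0.22 with scaling to the same sum (adjusted p = 0.612 by limma). NKD1 stands on 4 loci, and the other annotated one had 12.8 FPKM in ESC3, 6.81 in ESC7 and 11.9 in ESC11 on average, beside 9.02 in fibroblasts, without the rise in ESCs. The unannotated locus of 176 bp had 636 FPKM in ESC3, 576 in ESC7 and 431 in ESC11. That of 1112 bp had 546, 389 and 196. The order of ESC3 above ESC7 was also that of the neural marker sum, which was carried by TUBB3 and whose part in it was not tested. CDH2 was lower in ESC7 than in ESC3 by 1.06 ± 0.24 (adjusted p = 0.00577 by limma), at 29.6 ± 9.98 against 60.5 ± 8.63 FPKM. This was -0.95 without ESC3 replicate 2, -0.75 without ESC7 replicate 2, -0.96 with a pseudocount of 5 and -0.76 with scaling to the same sum, none of which was called.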

How the data were processed

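PolyA RNA was sequenced as 100 bp paired ends, per the labels' protocols. The values are FPKM made by the authors and deposited in 1 table of 12 columns. Tools named in the submitters' processing notes are Cufflinks 2.1.1 and STAR 2.4.0b, with the build Sscrofa10.2 and no step given for either tool. Read counts, strandedness and the handling of shared reads are not given in the sources used here. From low values, depth relative to fibroblast replicate 1 was estimated at 0.747 to 1.22, but only 9.83 to 25.0% of low loci sat at the common ratio, so whole reads were not recovered and no counting interval is given.

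Values were used as log2(FPKM + 1), with loci at FPKM 1 or more in at least 3 libraries. Means of the 4 groups were fitted in 1 model over all 12 libraries with limma 3.58.1 (trended eBayes, R 4.3.3), and 8 contrasts were tested two-sided with Benjamini-Hochberg adjustment over all 18278 loci. The procedure was tested on simulated data with 200 changed loci. The 9 genes and the pathway lists were chosen with earlier results of these data known, so patterns already seen are not independent support. Named pathway genes are, per role, up to 4 called genes of largest difference between ESCs and fibroblasts, genes called between 2 ESC lines, and genes named for their role. Alternatives varied the pseudocount, filter, scaling, variance prior, replicate term, choice of locus (for the 9 genes alone), fold minimum and libraries. One, using loci with an Ensembl identifier alone, was added after seeing the data. No value was dropped or imputed. One gene counted among the other targets is not reported here by name.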

Additional observations from a re-analysis of the deposited data

Results flagged for a closer look

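Among the other pathway genes, 3 differences between ESC lines passed the call. NKD1 differed by -1.65 from ESC3 to ESC7 and by 1.55 between ESC3 and ESC11 on the log2 scale, and CDH2 differed by -1.06 from ESC3 to ESC7. Each was tested directly between 2 ESC lines, and ESC3 and ESC11 also differ in origin. Of 25 alternatives, the NKD1 difference between ESC3 and ESC11 lost its call in 5 and the CDH2 difference in 4. The NKD1 difference between ESC3 and ESC7 kept its call in all 25.

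A second, unannotated locus with the symbol WNT3 lies on chromosome 12 at 17781849 to 17825406, 62340 bp from the annotated one. It was listed at 0 in the 3 fibroblast libraries and had 0.372 ± 0.108 FPKM in the 9 ESC libraries (range 0.214 to 0.502), and it was below the expression minimum in each of them.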

How the results depend on the processing

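The calls of LEF1, TCF7L1 and APCDD1 against fibroblasts kept their direction and side of the threshold under every alternative that could test them. The number of the 9 genes called in the ESC mean was 3 with a pseudocount of 5 and 9 without the fold minimum, and 4 to 5 when 1 library was left out. For ESC3 against fibroblasts it was 3 and 9, and 3 to 5 when 1 library was left out (3 without fibroblast replicate 2). For ESC7 against fibroblasts it was 3 and 9, and 4 to 6, and for ESC11 against fibroblasts 3 and 8, and 4 to 5. Other pathway genes that rose numbered 11 with a pseudocount of 5, quantile normalization or median ratios, 48 without the fold minimum, and 18 whichever library was left out. Over all loci, 3489 rose with quantile normalization, 3763 with median ratios, and 5114 to 5169 when 1 library was left out. Without the fold minimum, 2 of the 9 genes were called between the parthenogenetic mean and ESC11, 4 between ESC7 and ESC3, 4 between ESC3 and ESC11, and 2 between ESC7 and ESC11, beside 19.7%, 39.9%, 23.0% and 30.9% of all loci.

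Scaling to the same summed FPKM, which is set by short loci, called 4 of the 9 genes for the parthenogenetic mean against ESC11, 6 for ESC3 and 3 for ESC7, beside 52.8%, 66.3% and 31.8% of all loci called lower. It turned the parthenogenetic difference from ESC11 to -0.072 for LEF1, -0.98 for TCF7, -1.14 for TCF7L1, -1.14 for TCF7L2, -0.98 for APCDD1, -1.15 for CTNNB1, -0.82 for TNKS and -1.01 for TNKS2. That of ESC3 from ESC11 turned to -0.019 for LEF1, -0.87 for TCF7, -1.09 for TCF7L1, -1.23 for TCF7L2, -1.08 for APCDD1, -1.06 for TNKS, -1.19 for TNKS2, -0.78 for WNT3 and -1.01 for CDH2. That of ESC7 from ESC11 turned to -0.88 for APCDD1, -0.94 for CTNNB1, -0.58 for TNKS and -0.83 for TNKS2. ESC7 minus ESC3 turned to 0.18 for TCF7L2 and 0.19 for APCDD1, and TNKS in ESC3 minus fibroblasts to -0.23.

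Quantile normalization turned TNKS to -0.0031 in the ESC mean and -0.19 in ESC11 against fibroblasts. It turned the parthenogenetic difference from ESC11 to -0.025 for TCF7L1, -0.031 for TCF7L2 and -0.33 for CTNNB1, and CTNNB1 in ESC7 against ESC11 to -0.24. Median ratios turned TNKS to -0.11 in the ESC mean, -0.11 in ESC3 and -0.29 in ESC11 against fibroblasts, and the parthenogenetic difference from ESC11 to -0.033 for TCF7L2 and -0.0010 for CTNNB1. None of these reversed values had been called. Where 1 library was left out, the parthenogenetic difference from ESC11 ranged from -0.00021 to 0.086 for TCF7L1, from -0.038 to 0.034 for TCF7L2 and from -0.15 to 0.016 for WNT3. TCF7L2 in ESC3 against ESC11 ranged from -0.014 to 0.11, and NKD1 in ESC7 against ESC11 from -0.69 to 0.30. The cause was not tested.

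Same-numbered libraries of 2 groups did not deviate together (correlations of -0.09 to 0.087 over 18 pairs), and the main fit used no pairing by number. Such low correlations do not exclude a batch shared by libraries of the same number. With the replicate number as a replicate block, 5 of the 9 genes were called in the ESC mean, and no call of the 9 genes changed.

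Depth is unknown, so values near 0, such as LEF1 in ESCs and WNT3 in fibroblasts, have no counting limit. Each ESC origin rests on 1 or 2 lines, and line and origin cannot be told apart. Protein levels and the effect of IWR-1 were not measured here.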
